A study of Mus musculus with 2 samples.

Results

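The genes described here encode the secreted Wnt proteins and the receptors that bind them. They are 34 genes of the 31253 that could be named in the table, namely 19 Wnt ligands, 10 frizzled receptors and 5 co-receptors (Lrp5, Lrp6, Ror1, Ror2 and Ryk). The members were listed by name as known Wnt ligands and receptors, with no threshold on their expression values. All 34 had at least 1 transcript row, and together they had 68 rows.

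The data came from a study of mouse neural retinal progenitor cells (mNRPCs), which were isolated from the neural retina of adult mice and grown in a defined medium. The medium held basic fibroblast growth factor and CHIR99021, a small molecule that inhibits the kinase GSK3. The cultured group was 1 RNA sequencing library of C57BL/6 mNRPCs at passage 24, and the tissue group was 1 library of C57BL/6 retina. The age of the mice behind the tissue library was not given in the sources used here. No knockout, transgene or other allele was named for either group. The cells were described as a line from adult retina, and whether it goes back to 1 animal was not given.

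Wnt proteins are lipid-modified signals that cells secrete to act on neighbours or on themselves. In the canonical branch a Wnt protein bridges a frizzled receptor and Lrp5 or Lrp6, GSK3 is held back, and β-catenin enters the nucleus to work with TCF factors. In other branches Wnt5a-type ligands act through frizzleds together with Ror1, Ror2 or Ryk, on calcium release, the cytoskeleton or planar cell polarity. In the developing retina, Wnt signals are known from the ciliary margin and the vessels, where the ligand norrin acts through Fzd4, Lrp5 and Tspan12. CHIR99021 acts below the receptors, on GSK3 itself.

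Levels were given as FPKM, fragments scaled to transcript length and library size, so that genes of different length can be set side by side. To form a log2 ratio, 1 was added to each FPKM, the mNRPC value was divided by the retina value, and the log2 was taken. A gene was compared when it reached 1 FPKM in at least 1 library. Log2 ratios of 1 and above were counted as higher in mNRPCs, and those of -1 and below as lower. There was 1 library per group, so no difference here has a replicate check and no p-value was calculated. The error given with a log2 ratio is the counting error alone, estimated from the depth of about 6.93e+06 fragments in the mNRPC library and 4.94e+06 in the retina library. At these depths a transcript of 3000 bp reaches 3 fragments at 0.144 FPKM in mNRPCs and at 0.203 FPKM in retina, and lower values were read as not detectable.

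The labels were checked against marker genes. Of 11 genes of retinal progenitors 7 reached 1 FPKM in the mNRPC library, and 8 did so in retina. Of the list 4 were higher in mNRPCs (Sox2, Nes, Ccnd1 and Hes1), 3 were lower (Rax, Six6 and Lhx2) and 2 lay between, and it summed to 811.0 FPKM in mNRPCs and 290.0 FPKM in retina, with Ccnd1 at 371.4 and 4.26 FPKM. Sox2 was at 230.6 FPKM in mNRPCs and 18.5 FPKM in retina, and Pax6 was at 122.6 and 100.7 FPKM. Rax, at 81.7 FPKM in retina, and Six6, at 19.3 FPKM, were listed at 0 in mNRPCs. The paper, however, reported RAX in mNRPCs by RT-PCR at passages near this one, so the 0 of Rax does not show absence. All 10 rod genes were above 300 FPKM in the retina library, and they summed to 17739 FPKM there against 6.91 FPKM in mNRPCs. Genes of endothelial cells summed to 44.4 FPKM in retina, of which Kdr held 29.5 FPKM, and to 2.72 FPKM in mNRPCs. Those of pigment epithelium summed to 91.1 FPKM in retina, of which Ttr held 56.5 FPKM, and to 0.444 FPKM in mNRPCs. The 10 genes of fibroblasts and pericytes summed to 469.8 FPKM in mNRPCs, of which Col3a1 held 449.8 FPKM, and to 125.6 FPKM in retina, of which Thy1 held 106.2 FPKM. Of these genes 3 were higher in mNRPCs (Col3a1, Pdgfrb and Acta2) and 2 were lower (Thy1 and Rgs5), and Lum was listed at 0 in both libraries. The part of these other cell types in the Wnt results was not tested. In bulk RNA of a tissue, fewer cells of a type and less RNA per cell cannot be told apart.

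mNRPCs had more ligand mRNA than retina, and it came from few genes. The 19 ligands summed to 152.0 FPKM in mNRPCs and to 6.74 FPKM in retina, a ratio of 22.6. Over the frizzleds the sums were 75.2 and 29.6 FPKM, a ratio of 2.55, and over the co-receptors 105.3 and 27.4 FPKM, a ratio of 3.85. The FPKM of all rows summed to 1.43 times as much in mNRPCs as in retina, while the median log2 ratio over all genes compared was -0.12.

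Of the 34 members 17 were compared and 17 stayed under 1 FPKM in both libraries. In mNRPCs 9 were higher, against 24.5% of the 13780 genes compared across the table, and 4 were lower, against 30.0% of these genes. Members could pass the minimum through 1 library alone, which favours large ratios, so these counts describe the members and support nothing further. The 9 higher members were Wnt5a, Wnt5b, Wnt7b, Wnt9a, Fzd1, Fzd2, Fzd6, Fzd7 and Ryk. The 4 lower members were Wnt2b, Fzd5, Fzd9 and Fzd10, and Fzd3, Fzd8, Lrp5 and Lrp6 lay between. The median log2 ratio was 1.97 over the 5 ligands compared, 0.82 over 9 frizzleds and -0.24 over 3 co-receptors, beside -0.12 over all genes compared. With no minimum, over all 19 ligands and all 10 frizzleds, these medians were 0.00 and 0.44.

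**Figure D1:**
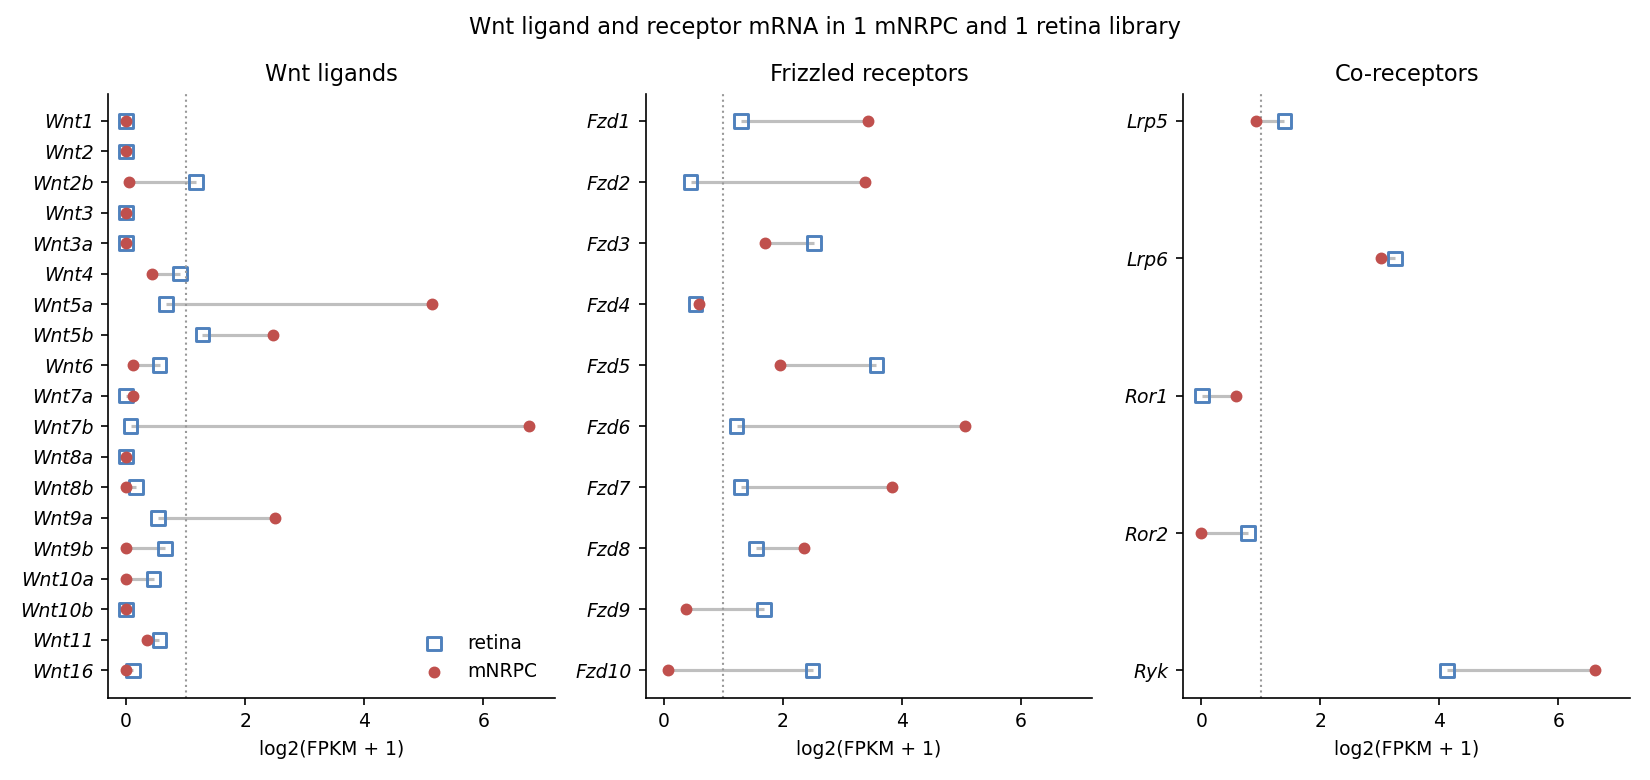
Level of each Wnt ligand, frizzled and co-receptor gene as log2(FPKM + 1) in the mNRPC library (filled circles) and the retina library (open squares), with 1 library per group and a dotted line at 1 FPKM. Wnt7b and Wnt5a lie far to the right in mNRPCs, while 17 members lie left of the dotted line in both libraries.

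The ligand at the highest level in mNRPCs was Wnt7b, which is known for canonical signalling in the nervous system, lung and vessels. Wnt7b was at 107.7 FPKM in mNRPCs and at 0.0534 FPKM in retina, a log2 ratio of 6.69 ± 0.08. The retina value came to 0.749 estimated fragments, so the ratio of FPKM, 2018, had a wide exact counting interval, 294.4 to 232285 at 95% confidence. It ranked 792 among all genes of the mNRPC library by FPKM. Of the genes compared, 99.8% had a lower log2 ratio than Wnt7b.

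Wnt7b was spread over 3 curated transcripts, at 11.2, 56.2 and 40.4 FPKM in mNRPCs, and each was under 0.02 FPKM in retina. All 3 rows were thus higher in mNRPCs. The antisense gene AU022754 covers 5.12% of the exon bases of Wnt7b on the opposite strand. Its own level was 1.41 FPKM in mNRPCs, with 0 listed for retina, and as the strand setting of the library was not given, reads of the overlap cannot be told apart. Wnt7a, the nearest paralog of Wnt7b, had 0.0869 FPKM in mNRPCs, about 1.91 fragments, with 0 listed for retina.

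Wnt5a, the ligand best known for the β-catenin-independent branches, came next. Wnt5a was at 34.2 FPKM in mNRPCs and at 0.588 FPKM in retina, 58.2-fold higher in FPKM, with a log2 ratio of 4.47 ± 0.15. These levels came to an estimated 1200 fragments in mNRPCs and 14.7 in retina, where most of the level lay on predicted transcripts. With curated transcripts alone the levels were 30.7 FPKM in mNRPCs and 0.0632 FPKM in retina (log2 ratio 4.90), so that the size of the fold, though not its direction, depends on the transcripts counted. By transcript, NM_001256224.1 held 52.0% and NM_009524.3 held 37.7% of Wnt5a in mNRPCs. In retina the predicted transcripts XM_006518923.2 and XM_006518924.2 held 40.2% and 49.1% of Wnt5a, on so few fragments that their division is uncertain.

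The other higher ligands were Wnt9a and Wnt5b, both far below Wnt7b in mNRPCs. Wnt9a, known from joint and liver development, was at 4.67 FPKM in mNRPCs and 0.448 FPKM in retina (log2 ratio 1.97 ± 0.20). Wnt5b, the paralog of Wnt5a, was at 4.56 FPKM in mNRPCs and 1.43 FPKM in retina (log2 ratio 1.19 ± 0.25). The Wnt5b ratio was less than its counting error above the threshold. It was under the threshold once both libraries had equal FPKM sums (0.83) or equal upper quartiles (0.98).

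Wnt2b was the lower ligand as deposited, but within the threshold (-0.67) with equal FPKM sums and the median of all genes subtracted. In the eye it is known from the ciliary margin and the pigment epithelium. The Wnt2b level was 1.25 FPKM in retina, about 20.5 fragments, and 0.0386 FPKM in mNRPCs, about 0.888 fragments. The ratio of retina to mNRPC FPKM was 32.4, with an exact 95% counting interval of 4.79 to 1997, while its log2 ratio of -1.12 ± 0.19 was held close to the threshold by the pseudocount. Genes of pigment epithelium, named above, were also lower in mNRPCs, with 6 of 8 reaching 1 FPKM in retina and 0 in mNRPCs, and their part in the Wnt2b value was not tested.

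The remaining 14 ligands stayed under 1 FPKM in both libraries. Wnt1, Wnt2, Wnt3, Wnt3a, Wnt8a and Wnt10b were listed at 0 in both, and among these are Wnt1 and Wnt3a, the ligands most often used to start canonical signalling. Wnt4, at 0.356 FPKM in mNRPCs and 0.871 FPKM in retina, and Wnt11, at 0.273 and 0.473 FPKM, were above 3 estimated fragments in both libraries. Wnt9b (0.570 FPKM), Wnt10a (0.375 FPKM), Wnt8b (0.121 FPKM) and Wnt16 (0.0844 FPKM) had a value in retina alone, with 0 listed for mNRPCs. Of these 4, Wnt9b and Wnt10a were above 3 estimated fragments in retina, at 12.7 and 4.57. For Wnt6 the level was 0.476 FPKM in retina, about 4.86 fragments, and 0.0784 FPKM in mNRPCs, about 1.12 fragments.

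The make-up of the ligand mRNA within each library does not depend on how the libraries are scaled to each other. In mNRPCs Wnt7b held 70.9% of the summed ligand FPKM and Wnt5a 22.5%, and these with Wnt9a and Wnt5b held 99.5%. In retina no ligand held more than 21.2%, the share of Wnt5b, followed by Wnt2b at 18.6%, Wnt4 at 12.9% and Wnt5a at 8.72%. The retina levels were so low that this order rests on few fragments, 16.3 for Wnt5b and 20.5 for Wnt2b, and these neighbours were not told apart by counting error. With curated transcripts alone, or with the highest transcript of each gene, Wnt2b led in retina, at 24.3% and 26.9%.

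**Figure D2:**
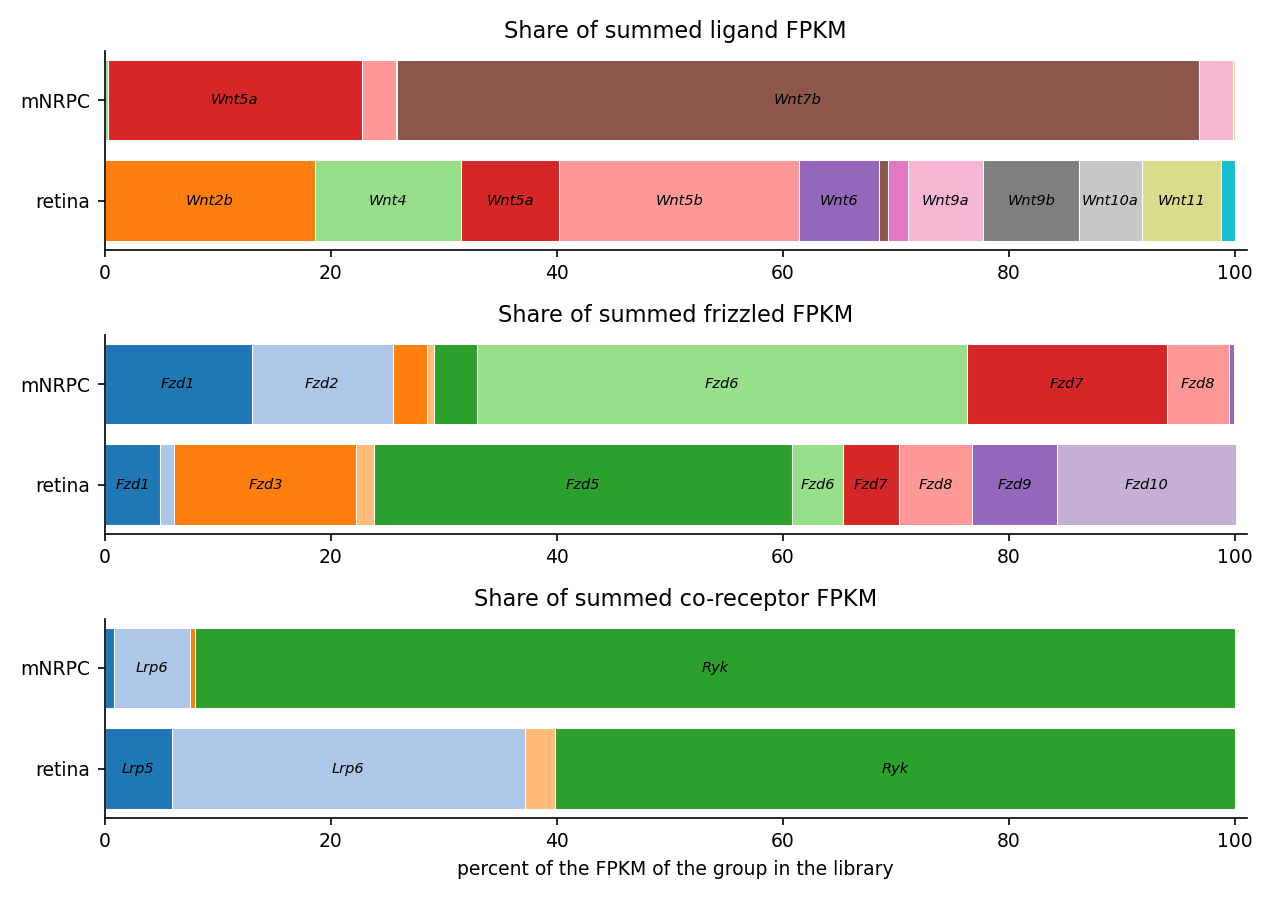
Share of the summed FPKM of the ligands, frizzleds and co-receptors that each gene held, in percent, in the mNRPC library and the retina library. Wnt7b, Fzd6 and Ryk hold the largest shares in mNRPCs (70.9%, 43.3% and 92.0%), and Wnt5b, Fzd5 and Ryk in retina (21.2%, 37.0% and 60.1%), where the lead of Wnt5b over Wnt2b depends on the transcripts counted.

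The order of the frizzled receptors differed between the libraries. Frizzleds span the membrane 7 times and bind Wnt proteins through an extracellular cysteine-rich domain. Fzd6 led in mNRPCs with 43.3% of the frizzled FPKM, followed by Fzd7 at 17.7%, Fzd1 at 13.0% and Fzd2 at 12.5%. In retina these 4 genes held 4.54%, 4.91%, 4.93% and 1.24%. Fzd5 led in retina with 37.0%, followed by Fzd3 at 16.1% and Fzd10 at 15.8%. In mNRPCs these 3 genes held 3.81%, 2.98% and 0.0687%. With the highest transcript of each gene, the lead of Fzd6 over Fzd7 in mNRPCs was narrow, 25.1% against 24.0%. In retina Fzd5 then led Fzd3 by 25.4% against 19.1%.

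Fzd6, a receptor known for planar polarity and hair patterning, was at 32.6 FPKM in mNRPCs and 1.34 FPKM in retina (log2 ratio 3.84 ± 0.16). Fzd2, which can pair with Wnt5a, was at 9.43 FPKM in mNRPCs and 0.367 FPKM in retina (log2 ratio 2.93 ± 0.17), and its retina value came to an estimated 6.63 fragments. In FPKM these were 24.3-fold for Fzd6 and 25.7-fold for Fzd2. The Fzd6 value depended on the transcripts counted, as it was 16.7-fold with curated transcripts alone and 10.9-fold with the highest transcript. Fzd7, known from stem cells, was at 13.3 FPKM in mNRPCs and 1.45 FPKM in retina (log2 ratio 2.55 ± 0.16). Fzd1, a close paralog of Fzd2 and Fzd7, was at 9.76 and 1.46 FPKM (log2 ratio 2.13 ± 0.17). Fzd1, Fzd2 and Fzd7 form the same subfamily of frizzleds, and all 3 were higher in mNRPCs under each scaling tried, with lowest log2 ratios of 1.74, 2.63 and 2.15.

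Fzd5, known in the eye for its role in the optic vesicle and lens, was at 2.87 FPKM in mNRPCs and 10.9 FPKM in retina (log2 ratio -1.62 ± 0.11). Fzd10 had 4.67 FPKM in retina, about 74.9 fragments, and 0.0517 FPKM in mNRPCs, about 1.16 fragments (log2 ratio -2.43 ± 0.15). Its ratio of retina to mNRPC FPKM was 90.3, with an exact 95% counting interval of 17.4 to 2343. Fzd9, the nearest paralog of Fzd10, was at 2.22 FPKM in retina and 0.300 FPKM in mNRPCs, where about 4.76 fragments were behind it (log2 ratio -1.31 ± 0.25). Fzd4, often grouped with Fzd9 and Fzd10, was at 0.509 FPKM in mNRPCs and 0.451 FPKM in retina, about 23.7 and 14.9 fragments, and was too low in both to be compared. It is known as the receptor of norrin on vessels. Fzd8, the paralog of Fzd5, was at 4.15 FPKM in mNRPCs and 1.93 FPKM in retina, and its log2 ratio of 0.82 ± 0.15 lay within the threshold, but past it with 0.1 added in place of 1 (1.07) or with low values set to the limit of 3 fragments (1.11).

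Fzd3, the partner of Fzd6 in a further subfamily, was at 2.25 FPKM in mNRPCs and 4.74 FPKM in retina. Its log2 ratio of -0.82 ± 0.10 lay within the threshold as deposited and past it with equal FPKM sums (-1.21) or equal upper quartiles (-1.05), and also with 0.1 in place of 1 added to each FPKM (-1.05). With equal sums the median of all genes was itself -0.60, and relative to it Fzd3 was at -0.61 and Fzd9 at -0.95, both within the threshold, while Wnt5b was at 1.43 and Fzd8 at 1.04. Fzd6 and Fzd5 overlap opposite-strand genes over 3.47% and 17.8% of their exon bases.

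**Figure D3:**
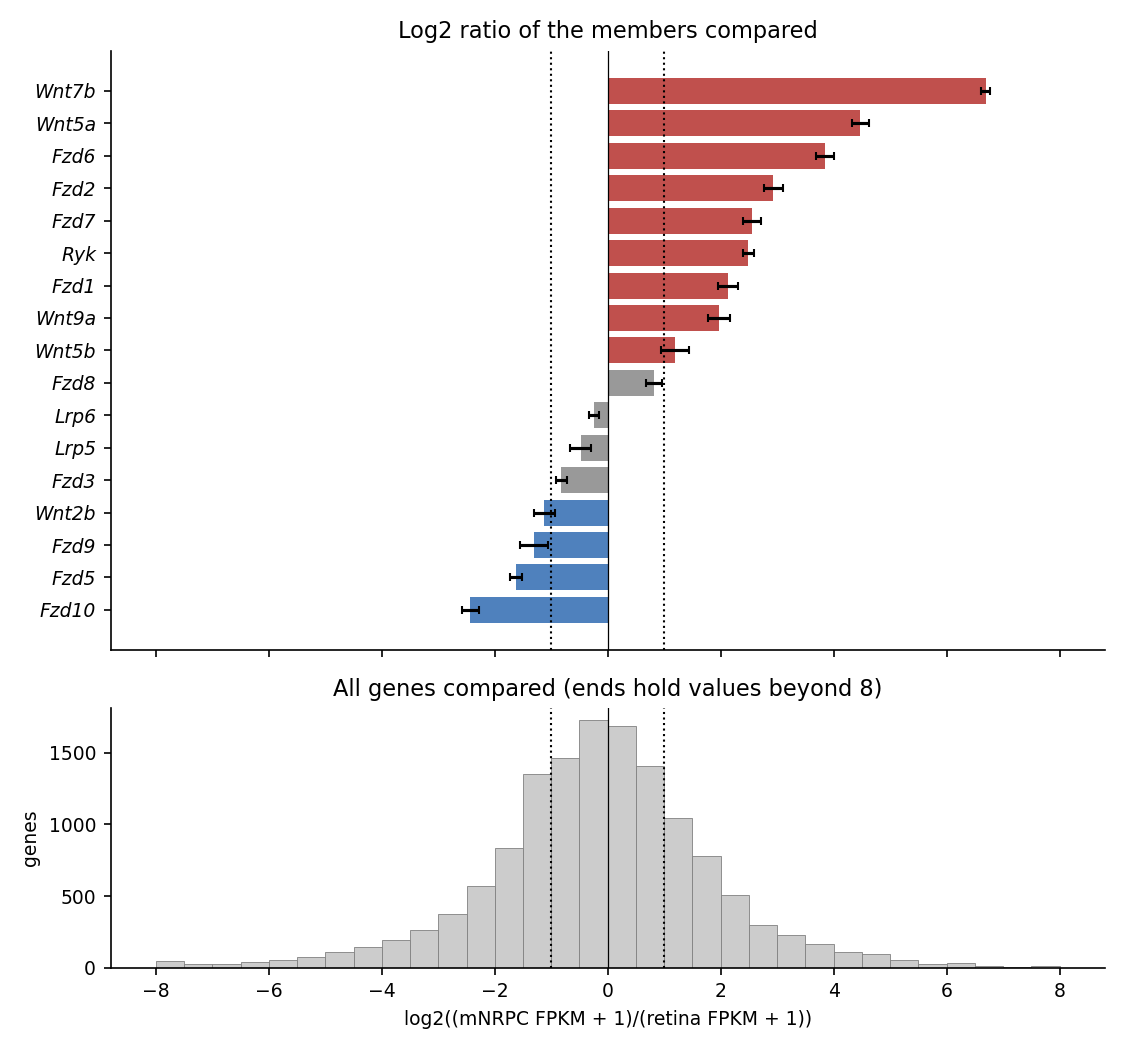
Upper panel, log2 ratio of mNRPC to retina FPKM, with 1 added to each, for the 17 members compared, where error bars are the estimated counting error and dotted lines mark a size of 1. Lower panel, number of genes by log2 ratio over the 13780 genes compared, where Wnt7b at 6.69 lies in the right tail and Fzd10 at -2.43 on the left side.

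Among the co-receptors Ryk stood highest in both libraries. Ryk is a Wnt receptor with a kinase-like domain that lacks kinase activity. Ryk was at 96.9 FPKM in mNRPCs and 16.5 FPKM in retina, 5.89-fold higher in FPKM, with a log2 ratio of 2.49 ± 0.10, and 3.53-fold higher with the highest transcript alone (log2 ratio 1.75). It ranked 882 among the genes of the mNRPC library and 4623 among those of the retina library.

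The make-up of Ryk by transcript also differed. NM_013649.3 held 48.2% of Ryk in mNRPCs and 80.2% in retina, and NM_001042607.1 held 40.4% and 10.8%. In FPKM, NM_013649.3 was at 46.7 in mNRPCs and 13.2 in retina, and NM_001042607.1 was at 39.2 and 1.77. For Fzd6, NM_001162494.1 held 42.9% in mNRPCs and 95.4% in retina, while the predicted XM_011245454.1 held 31.2% and 0.0565%. For Fzd5, NM_001042659.1 held 63.3% in mNRPCs and 42.1% in retina, and NM_022721.3 held the rest. Reads that fit several transcripts were divided by estimation, so these shares are less certain than the sums of the genes.

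**Figure D4:**
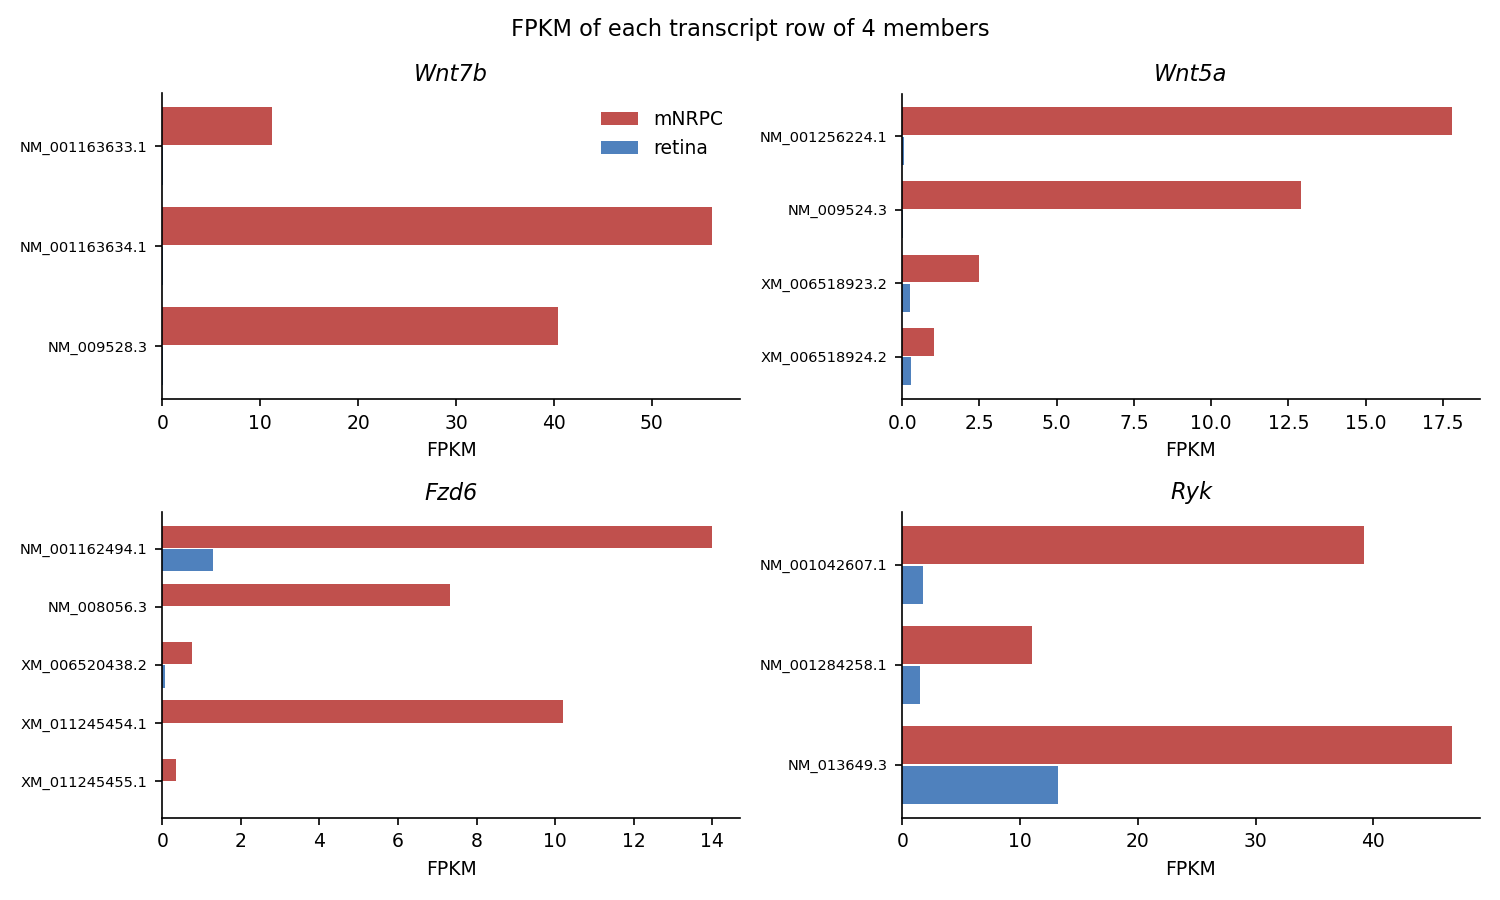
FPKM of each transcript row of Wnt7b, Wnt5a, Fzd6 and Ryk in the mNRPC library and the retina library, on linear axes that start at 0. All rows of Wnt7b are near 0 in retina, and in Ryk the row NM_001042607.1 is at 1.77 FPKM in retina and 39.2 in mNRPCs, beside 13.2 and 46.7 for NM_013649.3.

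The canonical co-receptors lay within the threshold. Lrp6 was at 7.07 FPKM in mNRPCs and 8.55 FPKM in retina (log2 ratio -0.24 ± 0.09), and Lrp5 was at 0.885 and 1.63 FPKM (log2 ratio -0.48 ± 0.18). With equal FPKM sums these ratios were -0.70 and -0.76, which is -0.09 and -0.16 once the median of all genes is subtracted. Lrp6 was thus 7.99 times the level of Lrp5 in mNRPCs and 5.24 times in retina.

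The receptor kinases Ror1 and Ror2, which bind Wnt5a, were low in both libraries. The Ror1 level was 0.495 FPKM in mNRPCs, about 19.8 fragments, and 0.00848 FPKM in retina, about 0.241 fragments. For Ror2, 0 was listed in mNRPCs and the retina level was 0.724 FPKM, about 14.2 fragments. Ror1 was thus above the limit of 3 fragments in mNRPCs alone and Ror2 in retina alone, both under 1 FPKM. That limit was 0.109 FPKM for Ror2 in mNRPCs. In mNRPCs the level of Ryk was 195.6 times that of Ror1.

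Several Wnt genes lie side by side in the genome. In the RefSeq annotation of GRCm38.p6 the pairs Wnt3a and Wnt9a, Wnt9b and Wnt3, Wnt10b and Wnt1, and Wnt6 and Wnt10a are next to each other among the protein-coding genes. Of these 8 genes Wnt9a reached 1 FPKM, in mNRPCs, where its neighbour Wnt3a was listed at 0.

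Sequences before the gene starts were searched for motifs in all members with a window, whether higher, lower or not compared. RefSeq start-site sequences of GRCm38.p6 were matched by symbol for 24 of the 34 members, with 27 windows of 250 bases before the start. The TCF core letters CTTTGA, read on both strands (TCAAAG on the other), were in 4 of the 27 windows (14.8%), against 13.8% of 32851 windows of all genes. The GC box letters GGGCGG, with CCGCCC on the other strand, were in 21 of the 27 windows (77.8%), against 32.7% of all windows. These motifs do not overlap each other in letters. The median GC content was 71.6% over the windows of members and 52.4% over all windows, with a median of 24 against 6 CG pairs. Each window was counted whole, although some reached into annotated exons. The windows of Fzd10, Fzd5 and Wnt7a held no base before an exon, and those of Wnt2b and Fzd9 few. The motif counts and the GC content thus do not describe upstream sequence alone.

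Of the 9 higher members 5 had a window, and windows of 4 of these are printed to show the motifs, the one not printed being Wnt9a with 5 GC boxes and no TCF core. They are written 5′ to 3′ on the strand of the gene, cut where an annotated exon begins, with the letters of either motif in capitals. Wnt5b, of which 1 of 3 windows is shown (chr6:119449387-119449636, minus strand, intron of Wnt5b), and Fzd1 (chr5:4758217-4758466, minus strand, between genes) hold the TCF core, and Fzd7 (chr1:59481897-59482146, plus strand, between genes) and Ryk (chr9:102834670-102834916, plus strand, up to the first exon) hold GC boxes alone. Positions count from the start, with negative numbers before it.
Wnt5b: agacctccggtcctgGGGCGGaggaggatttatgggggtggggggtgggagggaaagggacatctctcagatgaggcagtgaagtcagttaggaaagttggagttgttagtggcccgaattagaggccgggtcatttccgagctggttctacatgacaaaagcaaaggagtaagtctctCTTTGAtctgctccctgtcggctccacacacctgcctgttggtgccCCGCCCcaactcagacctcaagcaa
Fzd1: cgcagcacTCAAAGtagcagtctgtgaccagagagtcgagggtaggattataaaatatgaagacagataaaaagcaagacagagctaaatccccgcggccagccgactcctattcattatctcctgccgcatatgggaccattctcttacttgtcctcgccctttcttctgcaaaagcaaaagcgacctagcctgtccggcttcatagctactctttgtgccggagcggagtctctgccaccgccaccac
Fzd7: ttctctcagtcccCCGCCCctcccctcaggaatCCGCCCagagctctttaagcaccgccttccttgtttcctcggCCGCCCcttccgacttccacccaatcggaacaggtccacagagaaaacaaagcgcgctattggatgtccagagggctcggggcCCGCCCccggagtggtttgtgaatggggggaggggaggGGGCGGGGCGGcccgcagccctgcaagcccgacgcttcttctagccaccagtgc
Ryk: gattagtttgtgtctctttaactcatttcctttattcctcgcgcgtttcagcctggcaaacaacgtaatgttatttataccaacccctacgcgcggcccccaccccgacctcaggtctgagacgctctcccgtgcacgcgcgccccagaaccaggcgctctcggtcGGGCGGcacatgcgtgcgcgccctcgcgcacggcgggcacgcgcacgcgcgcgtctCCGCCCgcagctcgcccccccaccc
The TCF core began at position -71 in Wnt5b, where it read CTTTGA, and at -242 in Fzd1, where it read TCAAAG. The other 2 windows of Wnt5b held no TCF core, and the remaining matches were in Ror1 and Wnt11, which were not compared. The window of Fzd7 held 6 GC boxes and that of Ryk 2, and neither held the TCF core. A match is a description of letters, and whether a factor binds there was not measured in these libraries. Windows of Wnt7b, Wnt5a, Fzd2 and Fzd6, among others, were not analysed here.

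The other genes of the pathway were described from 7 lists, which hold 70 genes. Of these 50 were compared, of which 16 were higher in mNRPCs, 11 were lower and 23 lay between, beside 24.5% and 30.0% of all genes higher and lower. In 5 of the 7 lists some genes were higher and others lower.

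Release of Wnt proteins needs Porcn, which attaches the lipid, and Wls, which carries them to the surface. Of 6 secretion genes 3 were higher, 1 was lower and 2 lay between. Wls was at 189.2 FPKM in mNRPCs and 3.53 FPKM in retina (log2 ratio 5.39), while Porcn was at 5.43 and 24.3 FPKM (log2 ratio -1.98). The transport genes Tmed2 and Tmed10 had log2 ratios of 1.72 and 1.05. The gene of the carrier and that of the lipid transferase thus went in opposite directions.

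Of 12 receptor partners 11 were compared, with 5 higher, 3 lower and 3 between. Gpc4, a glypican that holds Wnt proteins at the surface, was at 60.6 FPKM in mNRPCs and 1.96 FPKM in retina (log2 ratio 4.38). The syndecan gene Sdc4 was at 161.5 and 28.8 FPKM (log2 ratio 2.45). Ndp, the gene of norrin, was at 5.77 FPKM in retina and 0.183 FPKM in mNRPCs, about 2.46 fragments. The glypican gene Gpc3 was at 4.75 FPKM in retina and 0.125 FPKM in mNRPCs, about 1.92 fragments.

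Of 9 genes of receptor turnover 4 were compared, and 1 was lower and 3 lay between. Lgr5, an R-spondin receptor, was at 0.101 FPKM in mNRPCs and 8.06 FPKM in retina (log2 ratio -3.04). Lgr4, of the same family, was at 20.7 and 14.0 FPKM (log2 ratio 0.53). Znrf3, a ligase that removes frizzleds from the membrane, was at 3.57 and 2.42 FPKM (log2 ratio 0.42). All 4 R-spondin genes were under 1 FPKM in both libraries.

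Of 12 secreted antagonists 4 were compared, with 2 higher and 2 lower. Dkk1 and Dkk2, which bind Lrp5 and Lrp6, had 2.38 and 5.84 FPKM in mNRPCs, and in retina 0 was listed for Dkk1 and 0.0961 FPKM for Dkk2. Frzb had about 155.3 fragments in retina and 1.18 in mNRPCs (log2 ratio -3.38), and Dkk3, a gene of Müller glia, was at 18.3 and 137.3 FPKM (log2 ratio -2.84). All 8 genes of the Müller glia list, which includes Dkk3, were lower in mNRPCs, summing to 54.1 FPKM there and 1985 FPKM in retina, and their part in the Dkk3 value was not tested.

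Of 13 cytoplasmic genes 12 were compared, with 2 higher (Csnk1a1 at 1.27 and Dvl2 at 1.02), 0 lower and 10 between. Dvl2, and Tmed10 among the secretion genes, exceeded the threshold by less than the shift of -0.12 that trimmed mean scaling brought. Both calls thus depend on the scaling. The shifts of upper quartile (-0.30) and common-sum scaling (-0.51) were larger. Under these Csnk1a1 could fall below the threshold and Gsk3b could pass it as lower. Other genes of the pathway lists near the threshold could also cross it. Gsk3b, which encodes a target of CHIR99021, was at 9.71 FPKM in mNRPCs and 17.6 FPKM in retina (log2 ratio -0.79). Of 9 TCF factors and feedback targets 6 were compared, with 2 higher, 1 lower and 3 between. Apcdd1 was at 33.8 and 3.92 FPKM (log2 ratio 2.82) and Tcf7 at 3.47 and 0.530 FPKM (log2 ratio 1.55). Axin2, a common readout of canonical signalling, was at 8.84 and 6.39 FPKM (log2 ratio 0.41), and Nkd1 had 4.10 FPKM in retina, with 0 listed for mNRPCs.

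Of 9 genes of planar polarity 7 were compared, with 2 higher, 3 lower and 2 between. Vangl1 was at 12.2 FPKM in mNRPCs and 0.355 FPKM in retina (log2 ratio 3.28). The atypical cadherin genes Celsr2 and Celsr3 had log2 ratios of -2.64 and -2.81, with 6.71 and 6.22 FPKM in retina. Prickle1 was at 5.03 and 15.0 FPKM (log2 ratio -1.41).

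**Figure D5:**
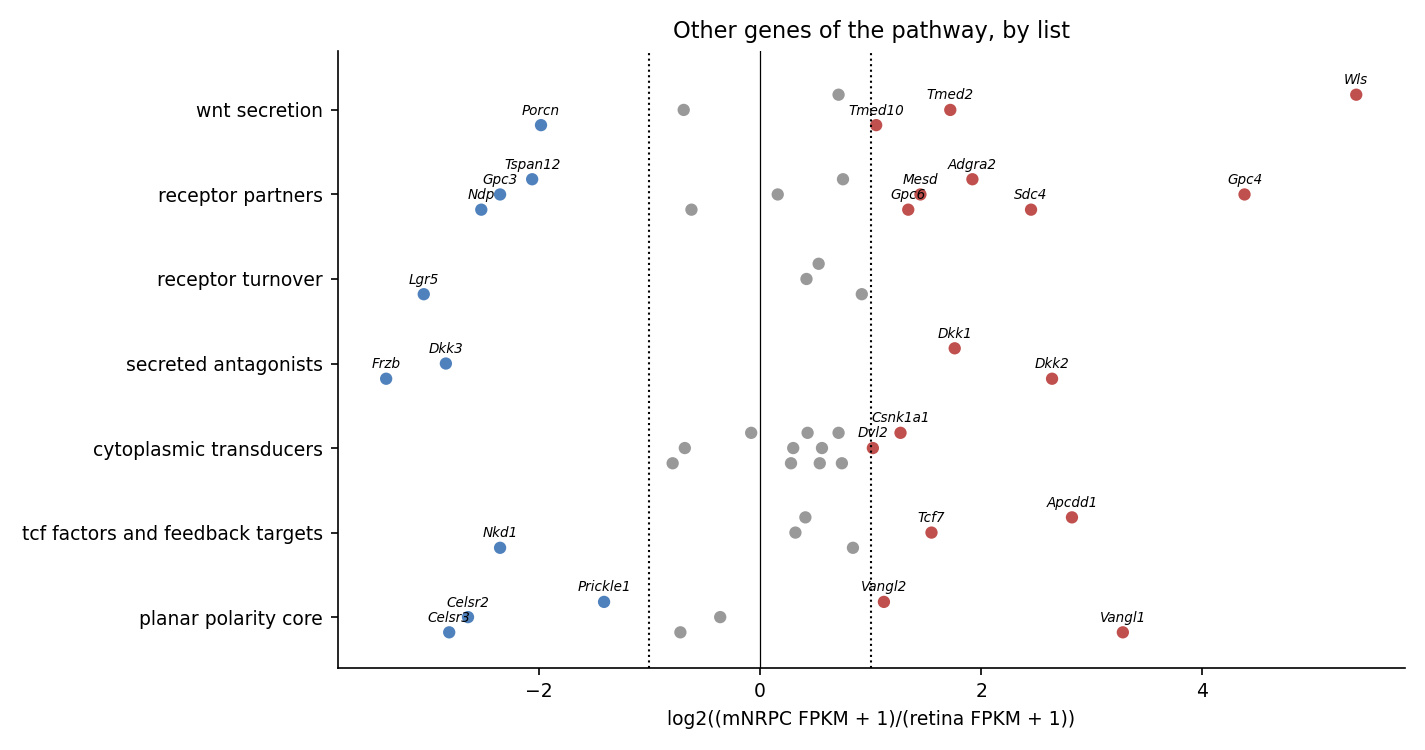
Log2 ratio of mNRPC to retina FPKM, with 1 added to each, for the 50 compared genes of 7 pathway lists, named where the size is at least 1 (dotted lines). Wls at 5.39 and Gpc4 at 4.38 lie farthest to the right, and Frzb at -3.38 and Lgr5 at -3.04 farthest to the left.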

How the data were processed

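Processed values of 2 RNA sequencing libraries were used, 1 from cultured mNRPCs and 1 from retina. The deposited table gave FPKM for 106754 RefSeq transcripts. The study's methods describe sequencing of mNRPCs under different treatments, and name Bowtie 2 for alignment and eXpress for FPKM. They do not name the libraries used here, and the submitters' processing notes name TopHat2 2.0.10 and GRCm38.p3. Which of these tools made the deposited values was not given, nor were the annotation release and the strand setting. The sources also name different sequencers. Estimates below 1e-06 FPKM were read as 0. Rps19, which every cell uses and which was looked up after its values had been seen, was at 0.0586 FPKM in retina and 10.2 FPKM in mNRPCs. A 0, or a value near 0 such as that of Wnt7b in retina (0.0534 FPKM), can thus be a failed estimate. The counting intervals do not cover such a failure.

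Accessions were matched without version to RefSeq genes of GRCm38.p6, then to GENCODE M21, which named 69.6% of rows and held 93.2% of mNRPC and 89.9% of retina FPKM. Rows were summed per symbol. Depth was estimated from the value at which FPKM times transcript length gathers, over transcripts of at least 1500 bp, and ranged from 6.56e+06 to 6.93e+06 fragments in mNRPCs and from 4.89e+06 to 5.04e+06 in retina with other length limits. Fragment numbers are therefore approximate, and they and the 3-fragment limit cover counting error only. The steps were tested on simulated data, with changes planted only in single transcript rows at high levels. Calls at low levels, and sums of rows divided by estimation, were not covered by it. Python 3.11.15, pandas 2.3.3 and NumPy 2.4.6 were used. No test between groups was run, as each had 1 library. Alternatives changed the pseudocount, minimum, scaling, rows, threshold and treatment of low values.

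The members, lists and alternatives were chosen with earlier results of these data known. Every member at 1 FPKM or more in a library was named with both values, the others by level and count, and of each pathway list up to 4 genes with the largest log2 ratios past the threshold, plus a few (Lgr4, Znrf3, Gsk3b, Axin2) chosen after their values were seen.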

Additional observations from a re-analysis of the deposited data

How the results depend on the processing

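The direction of the log2 ratio of each of the 17 members compared was kept under every alternative run, that is pseudocount, scaling, rows and treatment of low values. Of 119 such values 70 were within the 95% counting interval of the reported ratio and 49 moved in size. Rescaling to a common sum shifted all ratios by -0.51 before the pseudocount, upper quartile scaling by -0.30 and trimmed mean scaling by -0.12, and the median of all genes was then -0.60, -0.41 and -0.24. The share of all genes counted as higher was 17.9%, 20.2% and 22.7%, and as lower 39.5%, 35.3% and 32.0%. Of the members 9 were higher and 4 lower as reported, and over the alternatives 7 to 10 were higher and 1 to 5 lower. A minimum of 5 FPKM left 1 lower member, as did a threshold of 2 on the log2 scale, fewer by construction. Of all genes, 26.9% were higher and 25.9% lower at the minimum of 5 FPKM, and 11.2% and 14.1% at the threshold of 2. With the remaining alternatives 10.8% to 26.6% of all genes were higher and 13.2% to 33.1% lower. At the minimum of 1 FPKM used here, 13 members were detected in mNRPCs and 13 in retina, beside 11076 and 12639 of all 31253 genes. At 5 FPKM 8 members were detected in mNRPCs and 3 in retina, and with any value above 0 there were 23 and 27. Of all genes, 16079 were at 0 in mNRPCs and 14196 in retina. The ligand, frizzled and co-receptor medians of 1.97, 0.82 and -0.24 went to 5.58, 2.55 and 1.12 at a minimum of 5 FPKM, where fewer genes were counted, and to 1.25, 0.44 and -0.70 after rescaling to a common sum. With no minimum the ligand median was 0.00, as 14 ligands under 1 FPKM entered, and the frizzled median was 0.44 as Fzd4 entered. The ligand median was 3.12 with a pseudocount of 0.1 and 3.38 with low values set to the limit, and the co-receptor median was -0.51 with upper quartile scaling and -0.45 both with curated rows and with the highest transcript. The Wnt5a share of ligand FPKM in mNRPCs was 21.0% with curated rows only. With the highest transcript in place of the sum, the Wnt5b share in retina was 12.1%, behind Wnt2b, Wnt4 and Wnt9b, the Fzd6 share in mNRPCs 25.1% and the Fzd5 share in retina 25.4%, and with curated rows only the Fzd6 share was 33.3%, as fewer rows were counted. With a pseudocount of 0.1 the ratio of Wnt7b was 9.46, of Wnt5a 5.64, of Fzd10 -4.97 and of Wnt2b -3.29. The number of fragments limits 15 members in mNRPCs and 11 in retina, which had 3 estimated fragments or fewer. No paired analysis was possible because mNRPCs and retina had a single library each.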
